A study of Homo sapiens with 6 samples.

Results

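The SOX genes encode transcription factors that share an HMG box, the DNA-binding domain first described in the sex-determining factor SRY. Rows of 10 SOX genes were taken from the deposited count table by gene name, SOX2, SOX4, SOX5, SOX6, SOX8, SOX9, SOX11, SOX12, SOX13 and SOX18, out of 57341 named genes. All 10 were found, and 6 of them (SOX4, SOX5, SOX6, SOX8, SOX12 and SOX13) had enough counts to be tested among 16710 genes. RNA came from the human adrenocortical carcinoma line H295R, in 3 replicates of the parental line and 3 replicates of H295R-PM-Ptc+ cells. The latter are H295R cells that were sorted by flow cytometry for surface Ptch1, the Hedgehog receptor, and expanded in culture, so they are a selected subpopulation of the same line. Both were grown in the same serum-supplemented medium without treatment. The deposited columns name the 2 groups WT and PTC. The labels do not say whether the replicates are separate cultures, so the p-values measure only the spread between these libraries, which may be technical.

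The libraries held between 23264403 and 25813247 counted fragments. Replicate numbers 1, 2 and 3 carry the codes 1801, 3001 and 3101 in both groups. The labels were checked with PTCH1, the gene of the sorted receptor. PTCH1 had 441, 559 and 579 counts in the H295R-labelled libraries and 248, 326 and 319 in those labelled H295R-PM-Ptc+, so the labelled Ptch1-sorted cells held less PTCH1 RNA in every library (log2 fold change -0.81, SE 0.147, edgeR adjusted p = 0.0207). The adjusted p was 0.0799 without H295R replicate 2, 0.0921 without H295R replicate 3 and 0.0618 without H295R-PM-Ptc+ replicate 2, and 1.72e-06 under a replicate block, the fit that pairs libraries of the same replicate number. In the normalised values that accompany the paper, the columns of these libraries bear the group names the other way round, and the counts cannot tell which naming is right. Every library is therefore called by its label in the deposited table, and every fold change is given as labelled H295R-PM-Ptc+ against labelled H295R. With exchanged names each direction below would turn round. The labelled cell type was checked with 9 adrenocortical genes, all of which were detected and tested, with NR5A1, the steroidogenic factor, at 107 and 103 RPKM in the H295R-labelled and H295R-PM-Ptc+-labelled libraries and STAR at 79.2 and 105 RPKM (RPKM is the count per kilobase of counted exon, scaled to library size).

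SOX factors are sorted into groups by their HMG box. SOX2 belongs to group B1 and acts in pluripotent and neural stem cells. SOX4, SOX11 and SOX12 form group C, which acts in embryonic progenitors and in neurons. SOX5, SOX6 and SOX13 form group D, which lacks a transactivation domain, pairs through a coiled coil and, with SOX9, drives cartilage formation. SOX8 and SOX9 are group E factors of testis, cartilage and neural crest, and SOX18 is a group F factor of blood and lymph vessels. SOX factors bend DNA and usually act with partner factors, and some of them bind beta-catenin or the related TCF and LEF proteins.

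A conserved stretch near the start of the HMG box is shown for all 10 genes because the box is the feature that defines the family. These 27 bases were read from the coding strand of the canonical GENCODE v44 transcripts on hg38, and capitals mark bases that differ from SOX5.
SOX2: cgGccCatgaatgccttcatggtgtgg
SOX4: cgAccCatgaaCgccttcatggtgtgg
SOX11: cgGccGatgaaCgcGttcatggtAtgg
SOX12: AgGccGatgaaCgcAttcatggtgtgg
SOX5: cgtccaatgaatgccttcatggtgtgg
SOX6: cgAccaatgaatgcAttcatggtTtgg
SOX13: AgGccCatgaaCgccttcatggtgtgg
SOX8: cgGccCatgaaCgcAttcatggtgtgg
SOX9: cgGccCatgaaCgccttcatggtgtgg
SOX18: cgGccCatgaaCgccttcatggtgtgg
The stretch of SOX5 lies at chr12:23543284-23543310 on the minus strand, that of SOX12 at chr20:326048-326074 on the plus strand and that of SOX13 at chr1:204123705-204123731 on the plus strand. It differed from SOX5 in 2 to 5 of the 27 bases. Over the whole HMG box of 79 residues, the encoded proteins shared 87.3% to 98.7% of residues in the 7 pairs within a group and 48.1% to 68.4% in the 38 pairs between groups.

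The complete boxes of the 3 group D genes are printed because SOX5 is the member with the largest difference between the groups and SOX6 and SOX13 are its closest relatives. They were joined across introns from the same transcripts, and capitals again mark differences from SOX5.
SOX5: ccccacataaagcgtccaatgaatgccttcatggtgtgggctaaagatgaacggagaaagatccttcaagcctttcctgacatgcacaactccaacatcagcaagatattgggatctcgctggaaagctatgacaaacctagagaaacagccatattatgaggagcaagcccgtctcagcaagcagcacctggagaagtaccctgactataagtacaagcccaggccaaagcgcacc
SOX6: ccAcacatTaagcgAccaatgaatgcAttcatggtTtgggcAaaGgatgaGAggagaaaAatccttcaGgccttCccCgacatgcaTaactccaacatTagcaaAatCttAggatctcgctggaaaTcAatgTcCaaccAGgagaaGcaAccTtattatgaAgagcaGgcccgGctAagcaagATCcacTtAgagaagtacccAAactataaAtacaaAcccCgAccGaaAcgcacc
SOX13: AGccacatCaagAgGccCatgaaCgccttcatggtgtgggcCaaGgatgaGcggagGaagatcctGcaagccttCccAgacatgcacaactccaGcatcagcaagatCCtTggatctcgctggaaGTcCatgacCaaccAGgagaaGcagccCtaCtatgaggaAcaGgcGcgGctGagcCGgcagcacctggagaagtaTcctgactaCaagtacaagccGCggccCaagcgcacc
SOX6 and SOX13 each differed from SOX5 in 5 of the 79 residues of the box, but in 44 and 39 of its 237 bases. The longest run of identical bases shared by the transcripts of any 2 members was 37, between SOX8 and SOX9, and within group D it was 20, between SOX5 and SOX6.

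Counts of the 10 genes fell into a detected and a nearly absent set. SOX11 had 0 counts in all 6 libraries, and 0 counts still allow a level of up to 0.117 to 0.130 CPM (counts scaled to library size), the value of 3 counts, which covers counting error only. SOX2 had 3, 0 and 1 counts in the H295R-labelled libraries and 0 in each of the other 3. SOX18 had at most 3 counts and SOX9 at most 6 in any library. These 4 genes were removed by the low-count filter, and a difference in them was not detectable at this depth.

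**Figure D1:**
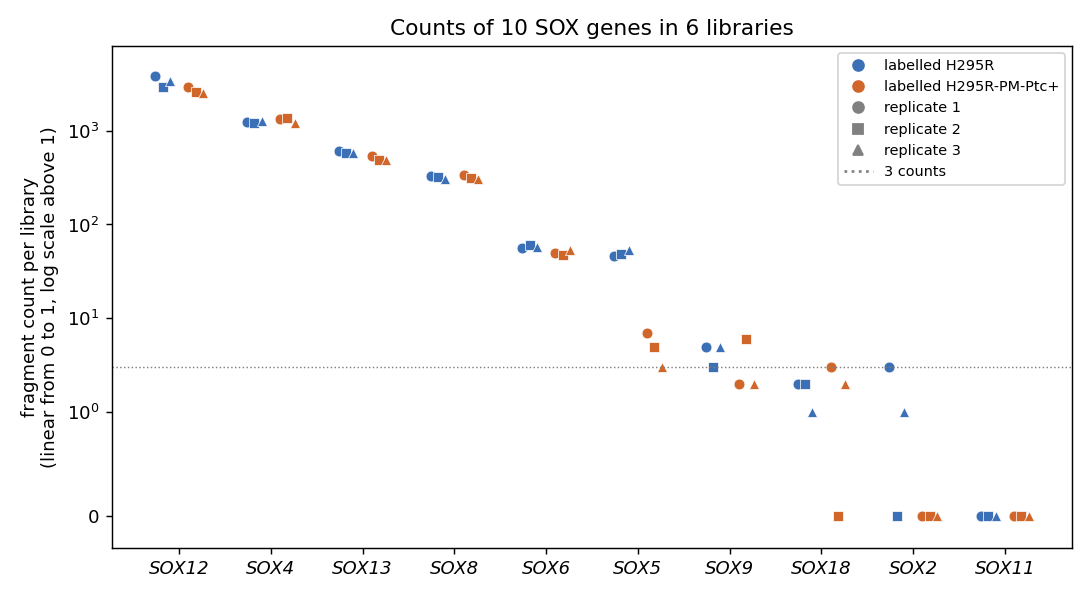
Fragment counts of the 10 SOX genes (y axis, linear from 0 to 1 and log above) in each library, by labelled group (colour) and replicate (symbol), with a dotted line at 3 counts. SOX12 reaches 3797 counts and SOX11 is at 0 throughout, and SOX5 is the gene whose groups stand clearly apart, at 46 to 54 against 3 to 7 counts.

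Per length, SOX12 was the most abundant member in every library, at 21.7 to 32.9 RPKM, and its 6-library mean lay above that of 87.8% of the tested genes. SOX4 followed at 8.19 to 9.36 RPKM, above 67.2% of the tested genes, and its range did not meet that of SOX12. SOX13 (2.63 to 3.41 RPKM) and SOX8 (2.80 to 3.07 RPKM) overlapped over the 6 libraries. In RPKM, SOX13 was the higher of the pair in each H295R-labelled library and the lower in each H295R-PM-Ptc+-labelled library. Their ranges also overlapped within each group, where the means were 3.20 and 2.90 RPKM (H295R) and 2.78 and 2.94 RPKM (H295R-PM-Ptc+). The counted lengths merge all annotated exons, 7420 bases for SOX13 and 4432 for SOX8, against canonical transcripts of 4076 and 3087 bases. The order of this pair therefore depends on the length used. SOX6 lay far below, at 0.0963 to 0.122 RPKM. SOX12 and SOX4, both of group C, made up between 83.7% and 85.7% of the summed RPKM of the 10 genes in every library. In RPKM, the place of SOX5 depended on the group. It was above SOX6 in the H295R-labelled libraries (0.213 to 0.246 against 0.117 to 0.122 RPKM). In those labelled H295R-PM-Ptc+ it was below SOX6 (0.0146 to 0.0308 against 0.0963 to 0.119 RPKM). The counted length is 8885 bases for SOX5 and 19636 for SOX6, against canonical transcripts of 7076 and 9304 bases. In raw counts SOX6 was above SOX5 in every library, so the lead of SOX5 depends on the length used.

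**Figure D2:**
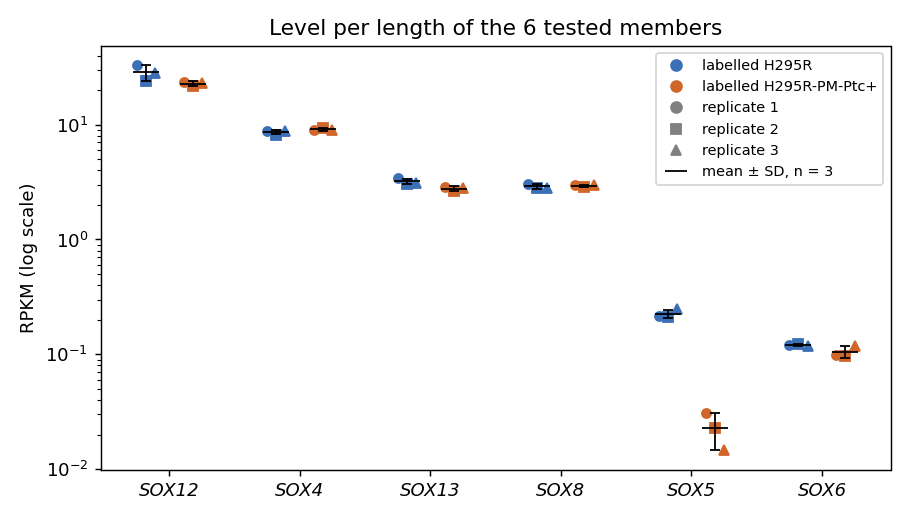
Level per length (RPKM, log scale) of the 6 tested members in each library, with the mean and SD of the 3 libraries of each labelled group. SOX13 and SOX8 lie close to each other near 3 RPKM, while SOX5 sits above SOX6 in the H295R-labelled libraries and below it in those labelled H295R-PM-Ptc+.

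The comparison of the groups asks which SOX genes differ between the sorted cells and the parental line. Of the 6 tested members 1, SOX5, had an adjusted p under 0.05 in edgeR's quasi-likelihood test, and it was lower in the H295R-PM-Ptc+-labelled libraries. Over all tested genes the test called 3.73%, and 1.32% as lower. SOX5 passed the filter on low counts through the H295R-labelled libraries alone, so its call is not independent of that filter. The median log2 fold change of the 6 members was -0.20, against 0.00094 over all tested genes. The 3 libraries of each label did not overlap in 4 members (SOX4, SOX5, SOX12 and SOX13), as in 23.5% of all tested genes. With the replicate number as a block, 3 members were called, SOX5, SOX12 and SOX13, all lower, in a fit that called 22.5% of all genes.

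**Figure D3:**
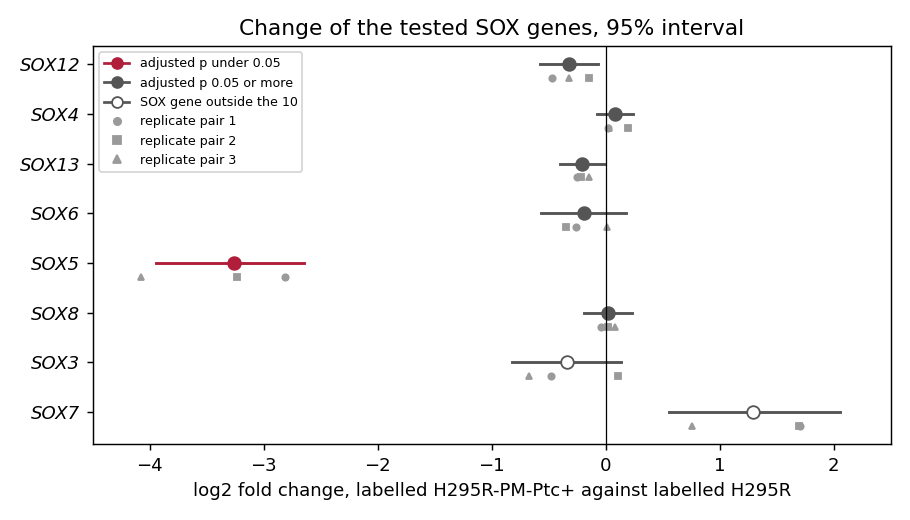
Log2 fold change of the 6 tested members and of SOX3 and SOX7 (x axis), with the 95% interval from edgeR's fit as a line and the log2 ratio of each same-numbered replicate pair as small symbols. SOX5 lies at -3.26, while the other 5 members lie between -0.32 and 0.08.

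In group D, SOX5 was much lower in the H295R-PM-Ptc+-labelled libraries and its relatives SOX6 and SOX13 differed little. SOX5 lies on chromosome 12 from 23529500 to 23951032 on the minus strand in the deposited annotation. It had 46, 48 and 54 counts in the H295R-labelled libraries and 7, 5 and 3 in those labelled H295R-PM-Ptc+. All 3 libraries labelled H295R were high and the groups did not overlap. This is 2.00 ± 0.161 CPM against 0.202 ± 0.0721 CPM (SD, n = 3 each). The log2 fold change was -3.26 (SE 0.286, 95% interval -3.94 to -2.65, edgeR adjusted p = 6.40e-04). The log2 ratio was -2.81, -3.23 and -4.08 in the 3 same-numbered pairs. In such bulk samples, fewer cells with SOX5 RNA and less SOX5 RNA per cell cannot be told apart, and the counts per gene name do not separate the long and short SOX5 transcripts.

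SOX6, which acts with SOX5 in cartilage, is counted on chromosome 11 from 15966449 to 16739591. It had 56, 61 and 57 counts in the H295R-labelled libraries and 50, 47 and 54 in the others. In CPM, the highest library labelled H295R-PM-Ptc+ (2.33 CPM) lay above the lowest of those labelled H295R (2.31 CPM). The log2 fold change was -0.19 with a 95% interval of -0.57 to 0.18 (adjusted p = 0.628), and -0.30 without H295R-PM-Ptc+ replicate 3. SOX13, on chromosome 1 from 204073115 to 204127743, is the member of the group with most RNA here and can bind the TCF7 protein. Its CPM values were 25.3, 22.7 and 23.2 in the H295R-labelled libraries and 21.2, 19.5 and 21.0 in those labelled H295R-PM-Ptc+. The groups lay apart by a narrow margin, at a log2 fold change of -0.20 (95% interval -0.40 to -0.01, adjusted p = 0.258, or 0.0368 under the block). As a share of group D RNA per counted exon length, SOX5 was 5.78% to 7.04% in the H295R-labelled libraries. It was 0.491% to 1.03% in those labelled H295R-PM-Ptc+, where SOX13 made up 95.5% to 95.7%.

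In group C, SOX12 was somewhat lower in the H295R-PM-Ptc+-labelled libraries and SOX4 was close to equal. SOX12, on chromosome 20 from 325401 to 330224, had 159, 116 and 137 CPM in the H295R-labelled libraries and 115, 105 and 110 CPM in those labelled H295R-PM-Ptc+. Replicate 1 labelled H295R was the highest library and the groups touched closely at 116 and 115 CPM. The log2 fold change was -0.32 (95% interval -0.58 to -0.07, adjusted p = 0.177), and -0.31 with the replicate block (adjusted p = 6.67e-04). Without H295R replicate 1 it was -0.21. The noncoding gene RP5-1103G7.4 overlaps SOX12 on the other strand and stood at 3.79 and 3.11 CPM (group means). SOX4, on chromosome 6 from 21592769 to 21598619, had 51.9, 47.9 and 51.2 CPM in the H295R-labelled libraries and 52.7, 54.7 and 52.2 CPM in the others. Its values were all slightly higher in the H295R-PM-Ptc+-labelled libraries, at a log2 fold change of 0.08 with a 95% interval of -0.08 to 0.24 (adjusted p = 0.636), and 0.05 without H295R replicate 2. The share of SOX4 in the summed RPKM of the 10 genes was 18.2% to 21.3% in the H295R-labelled libraries and 23.2% to 25.5% in the others, while that of SOX12 was 62.4% to 67.5% and 59.1% to 61.2%.

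Of the group E genes SOX8 was well detected and SOX9 was not. SOX8, on chromosome 16 from 981808 to 986979, had 325, 317 and 307 counts in the H295R-labelled libraries and 338, 314 and 305 in those labelled H295R-PM-Ptc+. The groups overlapped, and the log2 fold change of 0.02 had a 95% interval of -0.19 to 0.23 (adjusted p = 0.948). SOX9, on chromosome 17 from 72121020 to 72126420, had 5, 3 and 5 counts against 2, 6 and 2, or 13 against 10 in sum. Its antisense gene SOX9-AS1 had at most 1 count in a library. SOX18, on chromosome 20 from 64047582 to 64049641, had 5 counts in sum in each group.

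Replicate 1 stood apart from replicates 2 and 3 in both groups, and 30.8% of the tested genes differed between them with an adjusted p under 0.05 in a model with group and replicate number. Of the 6 tested SOX genes 1, SOX12, was called in this contrast, at 0.22 higher (log2) in replicate 1 (SE 0.0577, edgeR adjusted p = 0.0093). For the other 5 the difference lay between -0.05 (SOX6) and 0.10 (SOX13), and for SOX5 it was 0.03 (SE 0.281, adjusted p = 0.955).

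Outside the 10 genes, the table held 9 further SOX genes, of which SOX10, SOX14, SOX17 and SOX21 had no counts. SOX3, a group B1 gene on chromosome X, had 39, 36 and 46 counts in the H295R-labelled libraries and 30, 38 and 27 in the others, with overlapping groups and a log2 fold change of -0.34 (adjusted p = 0.468). SOX7, which belongs to group F with SOX18, had 6, 6 and 12 counts in the H295R-labelled libraries and 21, 19 and 19 in those labelled H295R-PM-Ptc+. These values did not overlap. The log2 fold change was 1.29 (SE 0.330, adjusted p = 0.0693, or 0.0131 under the block), and SOX7 passed the filter through the H295R-PM-Ptc+-labelled libraries alone. SOX1, SOX15 and SOX30 had at most 9 counts in a library and were not tested. The noncoding SOX2-OT, in whose span SOX2 lies, had 4, 4 and 7 counts against 4, 0 and 3.

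The genes next to SOX5 on chromosome 12 did not share its difference as a block. Of the 10 nearest tested genes, 5 on each side between 21797401 and 26079892, 4 were lower and 6 higher in the H295R-PM-Ptc+-labelled libraries, with a median log2 fold change of 0.02. The difference of ST8SIA1, which makes the ganglioside GD3, was -0.93 (adjusted p = 0.0429) and the only call among them without the block, and leaving out any library other than H295R replicate 1 raised its adjusted p to between 0.081 and 0.146. The nearest tested genes were ETNK1, an ethanolamine kinase (0.02), and CASC1 (-0.18), while RASSF8 stood at 0.33 (adjusted p = 0.115, or 4.79e-05 under the block). The block fit, which called 22.5% of all tested genes, called 4 of the 10, ST8SIA1 as lower and ABCC9, RASSF8 and RASSF8-AS1 as higher. SOX12 had 8 such neighbours near the chromosome end, 7 of them lower at a median of -0.15, and none was called without the block and 4 with it (C20orf96, ZCCHC3, RBCK1 and CSNK2A1, all lower), against the same 22.5%. Around SOX6, PDE3B (-1.57, adjusted p = 0.0101) and PLEKHA7 (1.36, adjusted p = 0.0269) were called in opposite directions, and lost the call without H295R replicate 3 (adjusted p = 0.053 and 0.106), PLEKHA7 also without H295R replicate 2 (0.111) and H295R-PM-Ptc+ replicates 1 (0.0544) and 2 (0.0879). The block fit called 5 of the 10 neighbours of SOX6, these and RRAS2, RP11-466H18.1 and RPS13, the last 3 lower. Without the block no neighbour of SOX4, SOX8 or SOX13 was called, and with it 2 of 10 were around SOX4 (RNF144B and CASC15, higher), 1 around SOX8 (CACNA1H, lower) and 1 around SOX13 (PIK3C2B, lower).

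**Figure D4:**
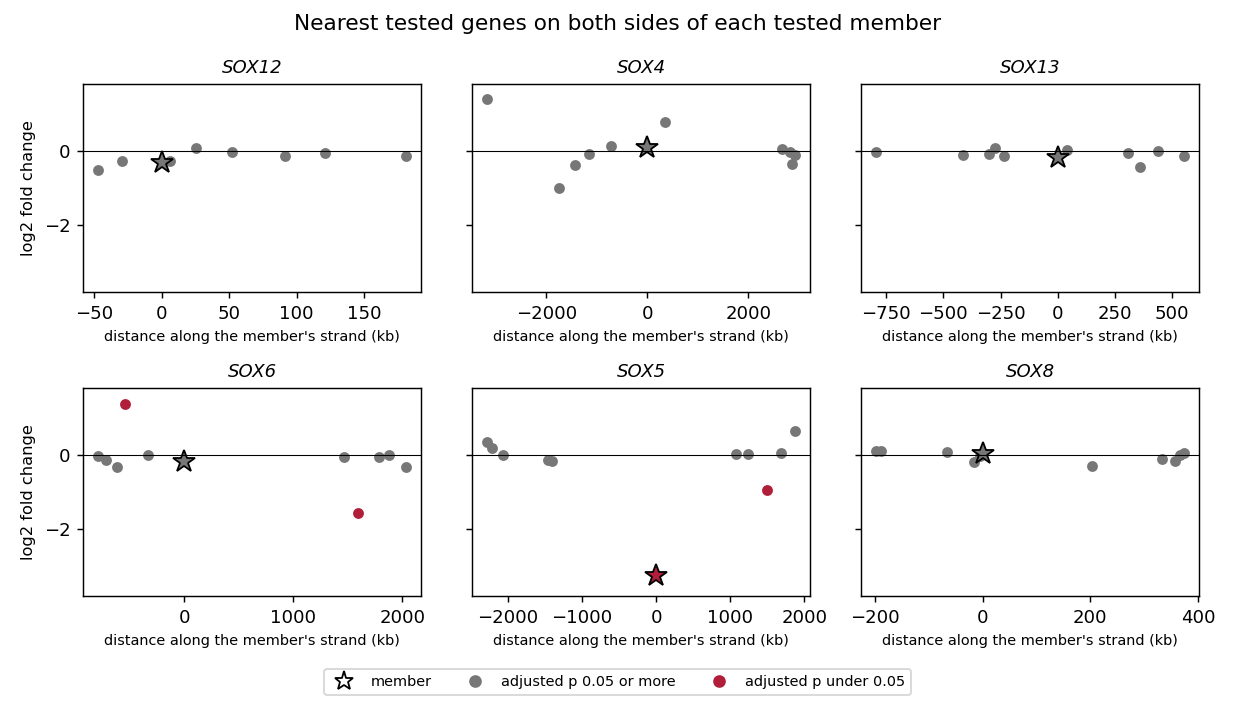
Log2 fold change (y axis) of the nearest tested genes on both sides of each tested member (star), against the distance between gene midpoints along the strand of the member in kb. The star of SOX5 lies at -3.26 and its neighbours between -0.93 and 0.63.

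The genes whose profile over the 6 libraries was most like that of SOX5 were found by the Euclidean distance of centred log2(CPM + 0.5), on which the change of a low gene is damped. The nearest 5 were GAGE2A (distance 0.174), a cancer-testis gene of a family of near-identical copies between which counts are uncertain, ANO1 (0.358), a chloride channel, KCTD15 (0.399), RERG (0.437), a growth inhibitor of the RAS family, and GRIN2A (0.467), an NMDA receptor subunit. Their log2 fold changes lay between -2.69 (ANO1) and -1.68 (KCTD15), a direction fixed by choosing genes like SOX5 over these same libraries. ANO1, with 13, 6 and 8 counts in the H295R-PM-Ptc+-labelled libraries, passed the filter on low counts through the H295R-labelled ones. With a pseudocount of 0.05, chosen after the data were seen, the nearest were ADCY2, ANO1, SLITRK3, ANKRD30A and C1QTNF7, so that 1 gene, ANO1, was shared.

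Lists of genes on which SOX factors act elsewhere, or that mark cells in which they act, were described by their counts. Calls in every list stand against 3.73% of all tested genes without the block and 22.5% with it. The cartilage matrix list, targets of SOX9 with SOX5 and SOX6, had 7 tested genes of 14, none called, at a median log2 fold change of -0.08. This median turned to 0.14 without H295R replicate 1. It also turned when H295R-PM-Ptc+ replicate 1 (0.05) or replicate 3 (0.10) was left out. COL11A1 (15.0 RPKM in the H295R-labelled libraries) and COL27A1 (2.64 RPKM) were the most abundant and stood at -0.10 and -0.08. COL2A1, the main cartilage collagen, stood at -0.79 (adjusted p = 0.118) and COL9A1 at -0.63 (adjusted p = 0.144). The block fit called both (0.0432 and 0.0295), and also COL11A2 at 0.69 (0.00664), against 22.5% of all tested genes. MATN3 stood at 0.32 (adjusted p = 0.322). The summed level of the list was 168 to 178 CPM in the H295R-labelled libraries and 136 to 183 CPM in the others, with LECT1 at 0.

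Of 9 neuronal genes tied to SOX4 and SOX11, 6 were tested and none was called, at a median of -0.05, which was -0.11 when H295R-PM-Ptc+ replicate 1 was left out and -0.03 when H295R replicate 1 was. STMN1, which binds tubulin, and TEAD2, a partner of the Hippo pathway, stood at -0.10 and -0.01 (log2). The neuronal tubulin TUBB3 stood at -0.25 (adjusted p = 0.186, or 0.00202 under the block), NEUROG2 at -0.69 (0.158 and 0.0281). These 4 tested genes had lower estimates, and the other 2, GAP43 and MAP2, higher ones, at 0.28 and 0.12 (edgeR adjusted p = 0.752 and 0.871). The neuronal marker DCX had at most 1 count, and NEUROD1 and STMN2 had none.

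Of 13 pluripotency genes, 1 was tested, KLF4, at a log2 fold change of 0.16 (adjusted p = 0.554). ESRRB and SALL4, next in level per length by the 6-library mean only, had at most 14 and 9 counts in a library. NANOG had at most 14, and POU5F1, the partner of SOX2 in pluripotent cells, at most 3. The list summed to 6.70 to 7.17 CPM in the H295R-labelled libraries and 6.92 to 7.69 CPM in the others.

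Of 14 genes of blood and lymph vessels, where SOX18 acts, 5 were tested and 1 was called, against 3.73% of all tested genes. Their median log2 fold change was 0.54, with 3 higher and 2 lower estimates. It was 0.27 when each library had to hold 10 counts or more. PROX1, a homeobox gene of lymph vessels, rose from 3.78 to 6.46 CPM (log2 fold change 0.77, SE 0.173, adjusted p = 0.0472), with an adjusted p between 0.0614 and 0.18 when any library other than H295R-PM-Ptc+ replicate 1 was left out, 0.0521 in limma-voom and 0.0546 when each library had to hold 10 counts or more. VCAM1 (-0.01) and EGFL7 (-0.30, adjusted p = 0.411, or 0.0307 under the block) made up most of the list, which summed to 68.3 to 96.7 CPM in the H295R-labelled libraries and 69.5 to 93.5 CPM in the others. Among the endothelial markers, CLDN5 and TIE1 were at 0, and PECAM1 and KDR had at most 3 and 2 counts. ESAM was tested, with 11 to 29 counts in a library and a log2 fold change of 0.54 (edgeR adjusted p = 0.469). TEK had up to 11 counts and CDH5 up to 5.

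Of 12 Schwann cell, neural crest and melanocyte genes, where SOX10 acts, 9 were tested, 7 of them with a higher estimate, at a median of 0.24. MITF, the melanocyte regulator, rose from 26.1 to 40.2 CPM (log2 fold change 0.62, SE 0.0718, adjusted p = 0.00212). ERBB3 (0.79, adjusted p = 0.0819) and PMEL (0.31, adjusted p = 0.104) were called under the block only (0.0143 and 0.0122), in a fit that called 22.5% of all tested genes. FOXD3, 1 of the 2 genes with a lower estimate, stood at -0.28 (edgeR adjusted p = 0.705). The list summed to 106 to 107 CPM in the H295R-labelled libraries and 114 to 123 CPM in the others, S100B had at most 2 counts and TYR at most 1.

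Of 9 Sertoli cell and testis genes, where SOX9 and SOX8 act, 4 were tested and none was called. AMH, a direct SOX9 and SOX8 target in Sertoli cells, stood at 17.1 and 23.2 CPM (log2 fold change 0.45, adjusted p = 0.322), and CYP26B1, which breaks down retinoic acid, at -0.39 (adjusted p = 0.121). The block fit called both (0.00519 and 0.00229), against 22.5% of all tested genes. GATA4 stood at 0.01, and DMRT1 and DHH had at most 3 counts.

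Beta-catenin (CTNNB1) and the 4 TCF and LEF genes, whose HMG box is related to that of the SOX factors, were all tested. LEF1 rose from 58.2 to 79.2 CPM (log2 fold change 0.44, SE 0.0695, adjusted p = 0.0099), with an adjusted p of 0.0581 without H295R replicate 3 and 0.0665 without H295R-PM-Ptc+ replicate 3. TCF7L2 stood at 0.25 (adjusted p = 0.239, or 0.0253 under the block), TCF7 at -0.13, TCF7L1 at -0.73 (adjusted p = 0.397) and CTNNB1 at -0.09.

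Of 4 genes tied to SOX5 or SOX13 by the study or by work it cites, none was called and all had a lower estimate in the H295R-PM-Ptc+-labelled libraries. SNAI2, an EMT factor, stood at -0.33 (adjusted p = 0.0632), MET, the receptor of hepatocyte growth factor, at -0.22 (0.233), CEP85, a centrosomal gene, at -0.18 (0.230) and EZH2, a histone methyltransferase, at -0.06 (0.803). The block fit called the first 3, in a fit that called 22.5% of all tested genes (3.73% without the block), and SNAI2 and CEP85 were chosen by the study on these libraries, so this list is not independent evidence.

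Of the 9 adrenocortical genes 1 was called, against 3.73% of all tested genes. The block fit called 2 as higher and 1 as lower, against 22.5% of all tested genes. CYP21A2, the steroid 21-hydroxylase, rose from 12.8 to 23.5 CPM (log2 fold change 0.88, adjusted p = 0.0067), although its counts are uncertain because of a near-identical pseudogene. NR5A1, which binds DNA beside SOX9 at the AMH gene, stood at -0.06 (adjusted p = 0.797). STAR, which carries cholesterol into mitochondria, stood at 0.41 (adjusted p = 0.346, or 3.91e-06 under the block) and CYP11A1, the side-chain cleavage enzyme, at -0.25 (0.391 and 0.001). The median of the list was 0.01, between -0.08 and 0.10 with single libraries left out, and the list summed to 970 to 1246 CPM in the H295R-labelled libraries and 1045 to 1329 CPM in the others.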

How the data were processed

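The authors mapped paired reads of stranded libraries to hg38 with STAR (2.4.0a, per the labels), summarised fragments by gene symbol in featureCounts (Ensembl models), including multiply mapped reads at their primary alignment, and deposited raw counts of all 6 libraries. The paper and the submitters' processing notes name different featureCounts releases. A row without a gene name held 0 counts and was left out.

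Group differences come from edgeR 4.0.16 under R 4.3.3 (filterByExpr with its defaults, TMM factors, glmQLFit and glmQLFTest, group as the only term, two-sided, Benjamini-Hochberg adjustment over all tested genes). CPM and RPKM use TMM-scaled library sizes and the deposited exon lengths. Intervals are 95% intervals of that fit. Same-numbered replicates may pair the groups. Departures of log2(CPM + 0.5) from each group mean had correlations of 0.325 to 0.594 for the same number and -0.443 to 0.211 otherwise. Replicate 1 stood out most, at 0.594. Replicates 2 and 3 had 0.405 and 0.325 with their own number, and 0.211 and 0.154 with each other. Taking departures from a mean of 3 libraries also pushes correlations between unlike numbers down. The study's methods name no paired fit, so the block on replicate number is an alternative, beside DESeq2 1.42.0, limma-voom (limma 3.58.1), RLE factors, other count filters and leaving out libraries. Fits were tested on simulated data.

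The members and the gene lists were chosen with earlier results of these data known, and no list was tested as a set. Named genes are PTCH1, all SOX genes with over 3 counts in some library (a Y-linked one left out), the called and up to 3 most abundant genes of each list, the 5 profiles nearest to SOX5 and the neighbours of SOX5. Other genes of the lists and the neighbours of members other than SOX5 were named after their values were seen. A gene that this rule names is not reported here. Sequences are from GENCODE v44 on hg38, and between 95.1% and 100% of each canonical transcript lay in the counted exons.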

Additional observations from a re-analysis of the deposited data

How the results depend on the processing

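The number of SOX genes called was 1 in every alternative, always SOX5, except 0 when at least 10 counts were required in every library, which removes SOX5 itself, and 3 with the replicate block. The log2 fold change of SOX5 lay between -3.57 and -3.05 over the alternatives that kept it, and its adjusted p was at most 0.00544. The count over all tested genes moved from 624 to 1111 without a filter on low counts, to 3758 with the replicate block and to 2013 without replicate 1 of both groups, an alternative added after seeing the data. With each library left out in turn it ranged from 219 to 810. It was 278 without H295R replicate 2 and 219 without H295R replicate 3. For H295R-PM-Ptc+ it was 247 when replicate 2 was left out and 257 when replicate 3 was. The replicate block changed no call of the members other than SOX12 and SOX13. The log2 ratio of SOX13 group means moved from -0.20 in RPKM to -0.14 in TPM. That of SOX4 went from 0.08 to 0.14 and that of SOX8 from 0.02 to 0.08, within the spread between pairs. The fold change of SOX8, near 0, turned to -0.00053 without H295R replicate 2 and -0.015 without H295R replicate 3 and reached 0.062 without H295R replicate 1. Of 120 list medians under alternatives 13 moved beyond the spread between pairs. Among them, without a filter the cartilage median turned to 0.29 and that of the other SOX genes to -0.24, and the TCF and LEF median turned to 0.08 when each library had to hold 10 counts. The cause of the other shifts was not tested. Genes with few counts, SOX9, SOX18, SOX2 and SOX11 among them, are limited by depth.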
